A study of Mus musculus with 3 samples.

Results

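LIM homeobox factors were followed through single brain nuclei of mice: 10 genes (Lhx1, Lhx2, Lhx3, Lhx4, Lhx5, Lhx6, Lhx8, Lhx9, Isl1 and Lmx1b) of the 32285 in the files. They were taken by name, not by their values. The study profiled nuclei of uninjured C57BL/6 mice, from brain neurons that a tracer injected at the lumbar spinal cord had reached along their axons. Tissue was cut out under fluorescence, frozen, and sorted as nuclei by flow cytometry, and RNA was counted as unique molecular identifiers (UMIs) with droplet sequencing in 3 libraries of 1 group. The labels call the libraries biological replicates and give no age, sex or number of animals for them. There is no injured or untraced group here, so the comparisons are between types of nuclei, all of them from the same 3 libraries.

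LIM homeobox genes encode transcription factors in which a pair of zinc-binding LIM domains, which bind cofactors such as Ldb1, precedes a DNA-binding homeodomain. In the developing hindbrain and spinal cord, neurons of different classes carry different combinations of these factors, and several members come as close pairs of paralogues. Lhx3 and Lhx4 mark motor neuron precursors and ventral interneurons, Lhx2 and Lhx9 a dorsal commissural class, Lhx1 and Lhx5 several inhibitory and dorsal classes, and Lmx1b serotonergic neurons and, apart from these, dorsal neurons. Lhx9 is also known from hypocretin neurons of the lateral hypothalamus, Isl1 from motor neurons, and Lhx6 and Lhx8 from interneurons and cholinergic neurons of the ventral forebrain.

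The members on which the results turn are shown by the last 60 bases of the homeobox. Over these bases Lhx1 with Lhx5 and Lhx2 with Lhx9 matched at 46, and Lhx3 with Lhx4 at 45. Lhx1 with Lhx3 followed closely at 43, so the stretch alone sets the paralogue pairs apart only narrowly. It is coding sequence, read from GENCODE mouse transcripts (GRCm38) in the sense of the gene, 5′ to 3′. Capitals mark the codons for tryptophan, phenylalanine, glutamine and asparagine of the DNA-recognition helix and the codons that follow them up to a conserved arginine.
Lhx3: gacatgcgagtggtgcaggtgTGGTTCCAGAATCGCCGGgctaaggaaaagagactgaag
Lhx4: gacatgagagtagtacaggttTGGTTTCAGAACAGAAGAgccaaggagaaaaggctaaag
Lhx2: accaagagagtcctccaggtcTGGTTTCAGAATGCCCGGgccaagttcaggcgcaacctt
Lhx9: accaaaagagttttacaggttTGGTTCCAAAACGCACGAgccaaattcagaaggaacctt
Lhx1: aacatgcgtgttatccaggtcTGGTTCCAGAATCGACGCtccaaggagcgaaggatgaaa
Lhx5: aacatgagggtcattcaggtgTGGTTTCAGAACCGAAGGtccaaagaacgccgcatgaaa
Lmx1b: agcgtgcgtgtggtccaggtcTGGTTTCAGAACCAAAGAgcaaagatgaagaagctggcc
Over the whole homeobox of 180 bases, Lhx1 and Lhx5 matched at 144 positions (80.0%), Lhx2 and Lhx9 at 143 (79.44%), Lhx3 and Lhx4 at 143 (79.44%) and Lhx6 and Lhx8 at 134 (74.44%). These were the 4 highest of the 45 pairs, and the lowest was Isl1 with Lmx1b at 90 bases (50%). The longest run of identical bases did not follow this order: it was 20 for Lhx3 with Lhx4 and also for Lhx3 with Lhx5, 19 for Lhx2 with Lmx1b, and 12 for each of the pairs Lhx1 with Lhx5 and Lhx2 with Lhx9. On GRCm38, Lhx3 lies at chr2:26200212-26208289 (minus strand), Lhx4 at chr1:155698031-155751684 (minus), Lhx2 at chr2:38339281-38369733 (plus), Lhx9 at chr1:138825186-138848577 (minus), Lhx1 at chr11:84518284-84525535 (minus), Lhx5 at chr5:120431699-120441223 (plus) and Lmx1b at chr2:33560965-33640511 (minus). A gene annotated on the opposite strand overlaps each of Lhx2, Lhx3, Lhx5 and Lmx1b, and the sources used here do not say whether counting used strand. Counts of these 4 genes may therefore hold reads of the overlapping gene.

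Barcodes were kept at 1000 genes or more and no more than 5% of UMIs from mitochondrial genes, which left nuclei numbering 2679, 2769 and 3579 in libraries 1, 2 and 3 (9027 in all), with a median of 8270, 19493 and 14388 UMIs. Each was given the first type whose gate it passed, with the gate level in CPM (UMIs of a gene scaled to the same total in every nucleus) and at least 2 UMIs. The gates were Tox at 300 CPM for cortical nuclei, Ttc6, Chst9 and Rreb1 together at 150 CPM for red nucleus, Sim1 at 150 CPM or Ros1 with Rfx2 at 150 CPM for hypothalamic nuclei, and Meis1 with Meis2 at 200 CPM for hindbrain nuclei. This gave 2782 hindbrain, 149 hypothalamic, 332 red nucleus and 4126 cortical nuclei, and 1638 passed no gate. In all, 1777 nuclei passed more than 1 gate, 1677 of them those for cortical and hindbrain nuclei, and the order of the gates decided their type. The libraries shared few barcodes (10 between libraries 1 and 2, 2 between 1 and 3 and 8 between 2 and 3).

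The gates were checked against markers that they did not use. The 8 cortical markers summed to 463 to 585 CPM in cortical nuclei, against 51.8 to 141 CPM in the other types, and to 255 to 352 CPM in nuclei that passed no gate. The lateral hypothalamic markers (Hcrt, Pdyn, Nptx2 and Pmch) summed to 735 to 1133 CPM in hypothalamic nuclei, against 30.1 to 134 CPM in the other types and 104 to 210 CPM in nuclei that passed no gate. Much of the lateral sum is Hcrt, with 1185 UMIs in nuclei of the Ros1 or Rfx2 gate and 61 in those of the Sim1 gate. The paraventricular markers (Otp, Oxt, Avp, Crh and Trh) summed to 173 to 637 CPM in hypothalamic nuclei, against 7.30 to 31.1 CPM in the other types. They summed to 16.4 to 44.5 CPM in nuclei that passed no gate. The red nucleus markers (Pou4f1, Slc17a6, Igf1, Vamp1 and Pvalb) summed to 235 to 246 CPM in red nucleus nuclei, against 131 to 164 CPM in hypothalamic and hindbrain nuclei, 43.9 to 50.5 CPM in cortical ones and 128 to 131 CPM in nuclei without a gate. The 10 hindbrain markers (Slc17a6, Sox14 and Hox genes among them) summed to 142 to 179 CPM in hindbrain nuclei, against 104 to 130 CPM in red nucleus, 110 to 112 CPM in hypothalamic and 9.55 to 9.97 CPM in cortical nuclei, with 88.4 to 108 CPM in nuclei without a gate. Much of this sum is Slc17a6, which is on the red nucleus list too. The other 9 summed to 48.7 to 64.1 CPM in hindbrain nuclei, against 0 to 14.4 CPM in the other types, with 22.8 to 36.2 CPM in nuclei that passed no gate. Each of these sums was highest under its own label, with the smallest ratios for the full hindbrain list and the red nucleus list, and nuclei without a gate held markers of several types. Hcrt, which belongs to hypocretin neurons, was at 71.6 ± 42.9 CPM in hindbrain and 56.1 ± 29.4 CPM in cortical nuclei (SD, n = 3 libraries), and the part of free RNA in these levels was not tested.

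UMIs were summed per type and library, and the 12 sums, of 367083 to 45768766 UMIs, were fitted with the library as a block (edgeR quasi-likelihood test). Each type was compared with the average of the remaining 3. Calls required a log2 fold change of 1 or more in size together with an adjusted p below 0.05 (Benjamini-Hochberg, 16176 genes). Of the 10 LIM genes, 7 passed the filter on low counts, and Lhx6, Lhx8 and Isl1 did not. Among the 7, hindbrain nuclei had 3 called higher and 1 lower, where 3.51% and 1.25% of all tested genes were called. Hypothalamic nuclei had 3 called higher and 0 lower (background 4.55% and 3.33%, with 2042 and 2541 genes at an unadjusted p under 0.05). Red nucleus nuclei had 2 called higher and 1 lower (background 4.84% and 2.32%), and cortical nuclei 0 called higher and 5 lower (background 9.24% and 13.3%, with 4975 and 4961 genes at an unadjusted p under 0.05). The 0 counts were also 0 with DESeq2. All 7 genes were low in cortical nuclei and passed the filter on low counts through the other types. A higher call was therefore hardly open to them there, and no conclusion is drawn from the cortical tally or median. Lhx5 was the LIM gene called lower in hindbrain nuclei, and the call was lost without library 2 or library 3. The median log2 fold change of the 7 was 0.70 in hindbrain, 0.98 in hypothalamic, 0.58 in red nucleus and -1.96 in cortical nuclei, beside 0.03, -0.04, 0.03 and -0.03 over all tested genes.

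Between single types, the calls among the 7 fell as follows, with the share of all genes called in the same direction. Hypothalamic over hindbrain nuclei had 3 higher and 2 lower (background 2.1% and 2.02%). Red nucleus over hindbrain nuclei had 2 higher and 2 lower (2.28% and 1.87%), and red nucleus over hypothalamic nuclei 1 higher and 2 lower (3.55% and 3.22%). Cortical nuclei had 0 higher against each other type, with 4 lower against red nucleus (background 8.48% higher and 13.2% lower), 4 against hypothalamic (10.3% and 11.7%) and 6 against hindbrain nuclei (8.4% and 13%). The limit on higher calls in cortical nuclei holds for these pairs too.

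**Figure D1:**
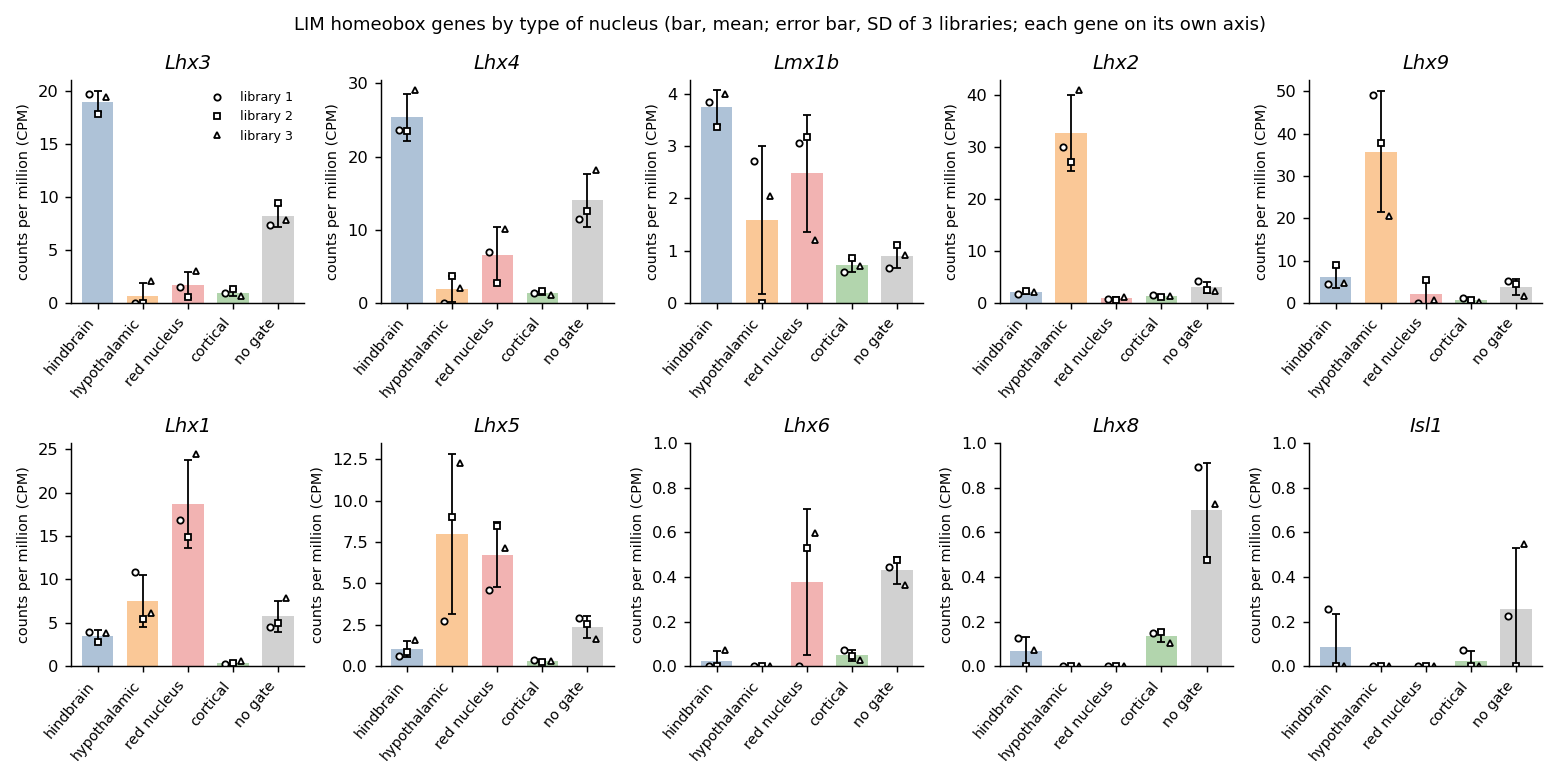
Levels of the 10 LIM homeobox genes in CPM (y axis) in each type of nucleus (x axis): bars are means, error bars the SD of 3 libraries, symbols the libraries, and each gene has its own axis. Lhx3 and Lhx4 stand highest in hindbrain nuclei (19.0 and 25.4 CPM), Lhx2 and Lhx9 in hypothalamic nuclei (32.6 and 35.8 CPM) and Lhx1 in red nucleus nuclei (18.7 CPM).

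Lhx3 and Lhx4 were highest in hindbrain nuclei. Lhx3 was at 19.7, 17.8 and 19.5 CPM in hindbrain nuclei of libraries 1, 2 and 3, against 0, 0 and 2.04 CPM in hypothalamic, 1.53, 0.530 and 2.99 CPM in red nucleus and 0.892, 1.33 and 0.637 CPM in cortical nuclei. Every hindbrain value lay above every value of the other types, and the log2 fold change was 4.05 ± 0.31 (SE; adjusted p = 5.86e-08, edgeR quasi-likelihood). Lhx4 was at 23.6, 23.4 and 29.0 CPM in hindbrain nuclei, against 0, 3.61 and 2.04 CPM in hypothalamic, 6.89, 2.65 and 10.2 CPM in red nucleus and 1.34, 1.59 and 1.02 CPM in cortical nuclei. Again the groups did not overlap, and the log2 fold change was 3.15 ± 0.25 (SE; adjusted p = 6.24e-08, edgeR). Both calls held in each of 13 other settings, with log2 fold changes of 3.36 to 6.23 for Lhx3 and 2.59 to 5.01 for Lhx4. Hypothalamic nuclei held only 1 UMI of Lhx3 and 3 of Lhx4, so the pooled ratios of hindbrain over hypothalamic nuclei were 26.6-fold for Lhx3 (95% counting interval 4.77 to 1054) and 12.1-fold for Lhx4 (4.11 to 58.5).

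By the mean over libraries, red nucleus nuclei came next for Lhx4, but in library 2 hypothalamic nuclei lay above them. The difference of red nucleus over hypothalamic nuclei did not pass (log2 fold change 1.77 ± 0.88, SE; adjusted p = 0.232, edgeR). Lhx4 was lower in cortical than in red nucleus nuclei, with a log2 fold change of -1.91 ± 0.41 (SE; adjusted p = 0.00108, edgeR), a call that was lost without library 3 (adjusted p = 0.0832), with doubled gate levels (0.0911) and after thinning every nucleus to 5000 UMIs (0.0696). For Lhx3, the same difference was -0.40 ± 0.64 (SE; adjusted p = 0.639) and did not pass. Nuclei without a gate held Lhx3 at 7.37, 9.40 and 7.82 CPM and Lhx4 at 11.4, 12.6 and 18.2 CPM, below each hindbrain value.

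Lmx1b, known from serotonergic neurons, was at 3.84, 3.38 and 4.01 CPM in hindbrain nuclei, against 2.72, 0 and 2.04 CPM in hypothalamic, 3.06, 3.18 and 1.19 CPM in red nucleus and 0.595, 0.852 and 0.713 CPM in cortical nuclei. The hindbrain values lay above all others, the closest being 3.18 CPM in red nucleus nuclei of library 2. The log2 fold change was 1.31 ± 0.38 (SE; adjusted p = 0.0238, edgeR), and the call was lost without any 1 of the libraries (adjusted p = 0.0759, 0.0781 and 0.197 without libraries 1, 2 and 3). Red nucleus against hindbrain nuclei did not pass for Lmx1b (log2 fold change -0.53 ± 0.48, adjusted p = 0.564), so their order is within the spread.

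Lhx2 and Lhx9 were highest in hypothalamic nuclei. Lhx2 was at 29.97, 27.0 and 40.9 CPM there, against 1.67, 2.30 and 2.01 CPM in hindbrain, 0.766, 0.530 and 1.19 CPM in red nucleus and 1.49, 1.20 and 1.35 CPM in cortical nuclei. The gap between the groups was wide in every library, and the log2 fold change was 4.35 ± 0.33 (SE; adjusted p = 3.76e-08, edgeR). Lhx9 was at 49.0, 37.9 and 20.4 CPM in hypothalamic nuclei, against 4.36, 8.92 and 4.75 CPM in hindbrain, 0, 5.30 and 0.597 CPM in red nucleus and 1.04, 0.655 and 0.229 CPM in cortical nuclei. Its level varied more between libraries, but the lowest hypothalamic value lay above the highest of the others (log2 fold change 3.88 ± 0.45, SE; adjusted p = 6.27e-06, edgeR). Both calls held in all 13 other settings (lowest log2 fold change 4.08 for Lhx2 and 3.49 for Lhx9).

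For Lhx9, hindbrain nuclei came second in each library. The log2 fold change of hypothalamic over hindbrain nuclei was 2.38 ± 0.45 (SE; adjusted p = 0.00198), and that of cortical over hindbrain nuclei was -3.04 ± 0.42 (SE; adjusted p = 7.09e-06, edgeR). Lhx2 was lower in red nucleus nuclei than in the mean of the others (log2 fold change -2.45 ± 0.52, SE; adjusted p = 0.00256, edgeR), where 4 UMIs were counted in all. That call was lost when every nucleus was thinned to 5000 UMIs (adjusted p = 0.164). Against single types, red nucleus nuclei were called lower only against hypothalamic nuclei (-5.10 ± 0.51, SE; adjusted p = 1.55e-06, edgeR). Red nucleus over hindbrain nuclei (-1.22 ± 0.61, adjusted p = 0.246) and cortical over red nucleus nuclei (1.02 ± 0.62, adjusted p = 0.199, edgeR) did not pass.

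Lhx1 was highest in red nucleus nuclei, at 16.9, 14.8 and 24.5 CPM in libraries 1, 2 and 3, against 10.9, 5.41 and 6.13 CPM in hypothalamic, 3.97, 2.73 and 3.79 CPM in hindbrain and 0.297, 0.306 and 0.560 CPM in cortical nuclei. The order of the types was the same in each library, and the log2 fold change was 3.06 ± 0.26 (SE; adjusted p = 1.27e-07, edgeR), a call that held in all 13 other settings. The step of red nucleus over hypothalamic nuclei was smaller (log2 fold change 1.56 ± 0.44, adjusted p = 0.0256, edgeR) and was lost without library 2 or library 3 (adjusted p = 0.146 and 0.271).

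Lhx5, the paralogue of Lhx1, was shared by red nucleus and hypothalamic nuclei. It was at 4.60, 8.48 and 7.17 CPM in red nucleus and 2.72, 9.02 and 12.3 CPM in hypothalamic nuclei, against 0.641, 0.863 and 1.56 CPM in hindbrain and 0.372, 0.262 and 0.331 CPM in cortical nuclei. It rose in red nucleus nuclei (log2 fold change 2.29 ± 0.39, SE; adjusted p = 0.000310, edgeR) and in hypothalamic nuclei (2.39 ± 0.56, SE; adjusted p = 0.00559), each against the mean of the other 3 types. The first call held in all 12 settings in which Lhx5 was tested, and the second was lost without library 2 or library 3 (adjusted p = 0.0803 and 0.121). The 2 types did not differ by a called amount (log2 fold change of red nucleus over hypothalamic nuclei -0.07 ± 0.55, SE).

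Cortical nuclei were low in each of these genes, and 5 of the 7 were called lower there: Lhx1 (log2 fold change -3.79 ± 0.34, SE), Lhx9 (-3.35 ± 0.46), Lhx5 (-3.23 ± 0.39), Lhx4 (-1.96 ± 0.55) and Lhx2 (-1.08 ± 0.34), with adjusted p of 3.64e-08, 7.77e-06, 1.63e-06, 0.00574 and 0.0128 (edgeR). The call of Lhx2 was lost without library 2 or library 3 (adjusted p = 0.0574 and 0.168) and that of Lhx9 without library 2 (0.0725). After thinning to 5000 UMIs, Lhx2, Lhx4 and Lhx9 were no longer called (adjusted p = 0.397, 0.85 and 0.922), and Lhx4 turned to a log2 fold change of 0.0969. Lhx3 and Lmx1b had log2 fold changes of -1.09 ± 0.77 and -1.22 ± 0.53 and did not pass. All 7 passed the filter on low counts through the other types. A fall was therefore nearly the only call open to them in cortical nuclei, and no conclusion is drawn from the tally. Against hindbrain nuclei alone, 6 of the 7 were lower in cortical nuclei (background 13%), Lhx2 being the exception at -0.19 ± 0.29 (SE). Among single types, Lhx2 was called lower in cortical nuclei only against hypothalamic nuclei (-4.08 ± 0.34, SE; adjusted p = 2.92e-08, edgeR). Against red nucleus nuclei it had 1.02 ± 0.62 and did not pass.

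Few UMIs of Lhx6, Lhx8 and Isl1 were counted. Lhx6 had 1 UMI in hindbrain, 0 in hypothalamic, 2 in red nucleus and 4 in cortical nuclei. Lhx8 had 2, 0, 0 and 13 UMIs in the same types, and Isl1 had 2, 0, 0 and 1. For all 3 genes in the 149 hypothalamic nuclei, 0 nuclei with a UMI allows a share of nuclei with a UMI of up to 2.01%. For Lhx8 and Isl1 in the 332 red nucleus nuclei the limit is 0.904%. These limits say nothing of nuclei that express the gene without a UMI being counted. The motor neuron markers Chat, Slc18a3, Slc5a7 and Prph together reached 10.4 to 13.9 CPM in hindbrain nuclei, against 1.17 to 5.83 CPM in the other types. Nearly all of this was Prph, a neurofilament gene, at 11.1 ± 1.82 CPM (SD, n = 3) in hindbrain nuclei. The cholinergic genes were near 0 there, with Chat at 0.372 CPM, Slc18a3 at 0.0727 CPM and Slc5a7 at 0.834 CPM. The remaining LIM homeobox genes of the mouse on the list, Isl2 and Lmx1a, also failed the filter, with 1 and 6 UMIs in hindbrain nuclei.

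The share of nuclei with at least 1 UMI gave the same picture but moves with depth. Lhx4 was seen in 22.4% of hindbrain nuclei (622 of 2782; 95% interval 20.8 to 23.95, Clopper-Pearson, counting error only) and Lhx3 in 16.8% (466; 15.4 to 18.2). In cortical nuclei, which should lack both genes, the shares were 2.40% for Lhx4 and 2.06% for Lhx3. The median depth was 7561, 15392 and 10950 UMIs in hindbrain nuclei, against 12640, 26866 and 19455 UMIs in cortical nuclei, so the higher share stood at the lower depth. Lhx1 was seen in 22.3% of red nucleus nuclei (74 of 332), against 0.654% of cortical nuclei. In hypothalamic nuclei, 21.5% held Lhx2 (32 of 149) and 18.8% held Lhx9 (28). After each nucleus was thinned to 5000 UMIs, which left out 312 hindbrain, 23 hypothalamic, 25 red nucleus and 168 cortical nuclei, the shares were 11.98% for Lhx4 and 8.95% for Lhx3 in hindbrain nuclei, 15.1% for Lhx9 and 11.1% for Lhx2 in hypothalamic nuclei and 10.4% for Lhx1 in red nucleus nuclei. The thinned shares in cortical nuclei were 0.758%, 0.581%, 0.379%, 0.707% and 0.126% for Lhx4, Lhx3, Lhx9, Lhx2 and Lhx1. Any LIM gene was seen in 44.7% of hindbrain, 46.3% of hypothalamic, 38.0% of red nucleus, 10.0% of cortical nuclei and 25.8% of nuclei without a gate.

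The hypothalamic nuclei came through 2 gates, and Lhx9 differed between them. The Sim1 gate gave 92 nuclei, the Ros1 or Rfx2 gate 56, and 1 nucleus passed both. Nuclei of the Ros1 or Rfx2 gate held Hcrt at 2153 ± 358 CPM, against 73.8 ± 40.0 CPM in Sim1 nuclei (SD, n = 3). Oxt, the gene of oxytocin, was at 8.11 ± 10.98 CPM in Ros1 or Rfx2 nuclei, against 503 ± 276 CPM in Sim1 nuclei. Otp, a factor of neurosecretory hypothalamic neurons, had 0 UMIs in Ros1 or Rfx2 nuclei and 43 in Sim1 nuclei. This split of the type was made after the results were seen. The Ros1 or Rfx2 nuclei numbered 19, 22 and 15 in libraries 1, 2 and 3, and the Sim1 nuclei 33, 22 and 37. In libraries 1 and 3 the Ros1 or Rfx2 nuclei were under the minimum of 20 kept for the other fits, so the calls between these parts rest on fewer nuclei.

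Lhx9 was at 116, 74.3 and 68.7 CPM in Ros1 or Rfx2 nuclei, against 0, 3.503 and 0 CPM in Sim1 nuclei. With 48 UMIs against 1, the pooled ratio was 70.3-fold (95% counting interval 12.02 to 2833), and the gene was called (adjusted p = 0.000298, edgeR; background 1.69% of 13513 genes called higher and 2.31% lower). Lhx2 was at 58.1, 44.6 and 54.9 CPM in Ros1 or Rfx2 nuclei, against 9.78, 10.5 and 34.9 CPM in Sim1 nuclei. The values did not overlap, but the difference did not pass (log2 fold change 1.37 ± 0.49, SE; adjusted p = 0.132). Lhx5 had 0 UMIs in Ros1 or Rfx2 nuclei and 12 UMIs in Sim1 nuclei, at 4.89, 17.5 and 17.4 CPM. Taking 3 UMIs over the Ros1 or Rfx2 nuclei as the limit, it was at least 2.73-fold lower there (adjusted p = 0.0665, not called). Against the other types, Ros1 or Rfx2 nuclei had Lhx9 and Lhx2 called higher (log2 fold change 5.12 ± 0.47 and 5.01 ± 0.46, SE; background 3.89% higher and 4.88% lower), and Sim1 nuclei had Lhx2 and Lhx5 called higher (3.64 ± 0.54 and 3.14 ± 0.62; background 4.4% and 3.49%). Lhx1 was at 8.11 ± 10.98 and 8.85 ± 9.91 CPM (SD, n = 3) in Ros1 or Rfx2 and in Sim1 nuclei.

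**Figure D2:**
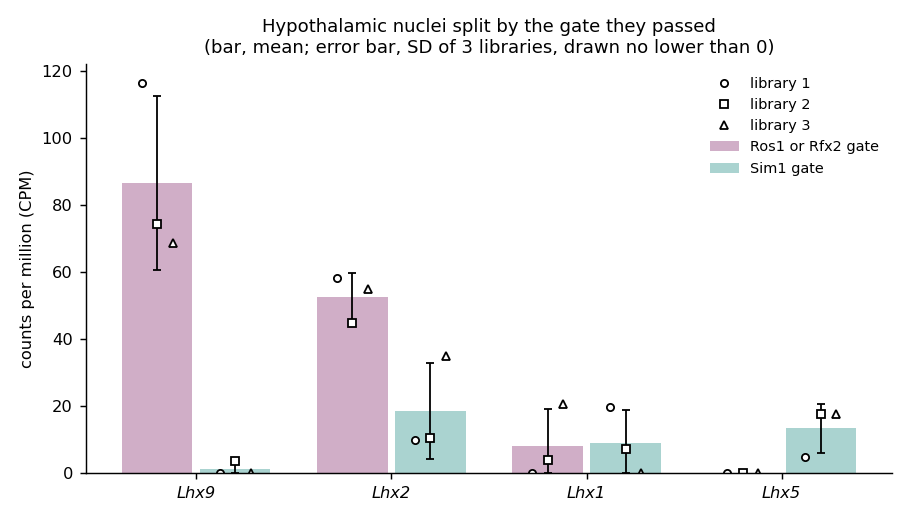
Lhx9, Lhx2, Lhx1 and Lhx5 in CPM (y axis) in hypothalamic nuclei that passed the Ros1 or Rfx2 gate (left bars) and the Sim1 gate (right bars): bars are means, error bars the SD of 3 libraries and symbols the libraries. Lhx9 lies at 68.7 to 116 CPM in Ros1 or Rfx2 nuclei and at 0 to 3.503 CPM in Sim1 nuclei, and Lhx5 is at 0 in the first.

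Which LIM genes share a nucleus was counted per type. For each pair, the nuclei with at least 1 UMI of both genes were set beside the product of the shares of the 2 genes, summed over 5 depth classes within each library, which is the number for 2 genes unrelated at a given depth. Of 45 pairs, 15 shared at least 1 hindbrain nucleus and 6 shared at least 5. These counts are descriptions of nuclei, which are not replicates, and carry no test.

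Paralogues shared hindbrain nuclei in counts above the product of their shares. At 2 UMIs or more of each gene, Lhx3 and Lhx4 met in 4, 20 and 10 nuclei of libraries 1, 2 and 3, against products of 0.713, 8.29 and 5.88, or 34 against 14.9 in all (2.28 times). The pairs of rarer genes need the lower limit of 1 UMI. With it, Lhx3 and Lhx4 met in 42, 78 and 75 nuclei, against products of 22.1, 43.9 and 47.3, or 195 against 113 in all (1.72 times). Of the nuclei with Lhx3, 41.8% also held Lhx4, and 31.4% of those with Lhx4 held Lhx3. Lhx2 and Lhx9 met in 4, 16 and 10 nuclei, or 30 against 5.70 (5.27 times), which is 50% of the nuclei with Lhx2 and 19.0% of those with Lhx9. Lhx1 and Lhx5 met in 1, 2 and 3 nuclei, or 6 against 1.32. After thinning to 5000 UMIs, Lhx3 and Lhx4 met in 44 nuclei against 26.5, Lhx2 and Lhx9 in 5 against 0.446 and Lhx1 and Lhx5 in 2 against 0.254.

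Counts for members of different pairs lay below the product. Lhx4 and Lhx9 met in 0, 0 and 3 nuclei, against products of 4.17, 24.4 and 14.6, or 3 against 43.1 in all. Lhx3 and Lhx9 met in 3 against 33.9. Joined by paralogue pair, 893 hindbrain nuclei held Lhx3 or Lhx4 (32.1%), 188 Lhx2 or Lhx9 (6.76%), 118 Lhx1 or Lhx5 (4.24%) and 75 Lmx1b (2.70%). Nuclei with Lhx3 or Lhx4 held Lhx2 or Lhx9 in 0, 1 and 6 cases, against products of 8.50, 38.0 and 23.8, held Lhx1 or Lhx5 in 6, 7 and 3, against 7.72, 14.8 and 17.7, and held Lmx1b in 2, 3 and 3, against 5.51, 8.23 and 12.6. Counts lay below the product in every library for these 3 combinations. Lhx2 or Lhx9 met Lhx1 or Lhx5 in 1 nucleus against 10.1 and Lmx1b in 0 against 6.52. The exception was Lhx1 or Lhx5 with Lmx1b, in 4 nuclei against 3.64.

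**Figure D3:**
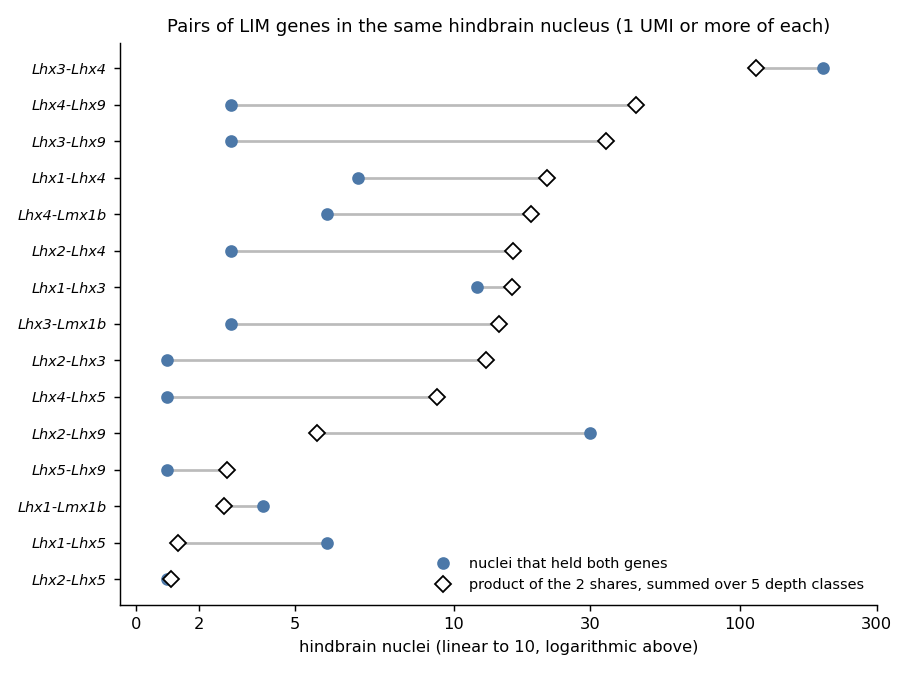
Pairs of LIM genes (y axis) in hindbrain nuclei with at least 1 UMI of each: circles are the nuclei that held both genes and diamonds the product of both shares summed over 5 depth classes (x axis, nuclei, linear to 10 and logarithmic above). Lhx3 with Lhx4 (195 against 113), Lhx2 with Lhx9 (30 against 5.70) and Lhx1 with Lhx5 (6 against 1.32) lie to the right of their diamond, and Lhx4 with Lhx9 lies far to the left (3 against 43.1).

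The same pairs met in other types. Lhx2 and Lhx9 shared 11 hypothalamic nuclei against a product of 5.76, with 3, 2 and 6 by library, and in library 2 the count was below its product of 2.61. This product joins the nuclei of both hypothalamic gates. At 1 UMI or more, Lhx9 was in 27 of 56 Ros1 or Rfx2 nuclei and 1 of 92 Sim1 nuclei, and Lhx2 in 19 and 13. A product within each gate was not computed, so sharing and the mix of gates cannot be told apart here. Lhx1 and Lhx5 shared 12 red nucleus nuclei against 8.27 (2, 6 and 4 by library against 1.07, 3.94 and 3.26). Lhx3 and Lhx4 shared 29 nuclei without a gate against 13.0, and 21 cortical nuclei against 2.53. After thinning to 5000 UMIs, Lhx1 and Lhx5 shared 1 red nucleus nucleus against 1.09, no longer above the product, and Lhx2 and Lhx9 shared 3 hypothalamic nuclei against 1.92. Lhx3 and Lhx4 then shared 7 nuclei without a gate against 2.71 and 5 cortical nuclei against 0.185. Over all types together, 248 nuclei held Lhx3 with Lhx4, 53 held Lhx2 with Lhx9 and 28 held Lhx1 with Lhx5.

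Hindbrain nuclei with at least 2 UMIs of Lhx4 (25, 83 and 84 nuclei in libraries 1, 2 and 3) were set against those with none (759, 563 and 838), as sums per library in a paired fit. The same was done for Lhx3 (23, 56 and 63 positive and 787, 606 and 923 negative nuclei). For the other LIM genes at least 1 library had under 20 positive nuclei in each type, so they were not fitted. Positive nuclei were deeper, with a median of 15574 against 9913 UMIs for Lhx4 and 15964 against 9972 UMIs for Lhx3, and the part of depth in the results was not tested beyond thinning. Of 14371 genes, 62 (0.431%) were higher and 301 (2.09%) lower in Lhx4-positive nuclei. For Lhx3, 58 (0.407%) of 14254 were higher and 249 (1.75%) lower.

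Each gene rose in nuclei positive for the other. Lhx3 was at 52.4, 37.8 and 27.8 CPM in Lhx4-positive nuclei, against 16.3, 10.3 and 14.6 CPM in Lhx4-negative nuclei (CPM scaled by the fit; log2 fold change 1.50 ± 0.21, SE; adjusted p = 5.18e-07, edgeR). Lhx4 was at 73.8, 46.7 and 46.8 CPM in Lhx3-positive nuclei, against 21.6, 16.9 and 26.3 CPM in Lhx3-negative nuclei (log2 fold change 1.27 ± 0.20, SE; adjusted p = 9.70e-05, edgeR). The groups did not overlap in either case. The second was at 0.96, below the fold threshold, when 1 UMI made a nucleus positive.

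Of the listed ventral class factors, Sox14 and Shox2 rose in Lhx4-positive nuclei. Sox14, a factor of ventral interneuron classes, was at 17.5, 21.3 and 23.0 CPM in positive nuclei, against 4.87, 7.10 and 6.38 CPM in negative nuclei (log2 fold change 1.72 ± 0.28, SE; adjusted p = 8.43e-06). Shox2, a factor of excitatory rhythm-related interneurons, was at 21.8, 41.2 and 45.3 CPM in positive nuclei, against 12.9, 11.7 and 19.6 CPM in negative nuclei (1.45 ± 0.20; adjusted p = 1.65e-07, edgeR). In Lhx3-positive nuclei, Shox2 rose (1.12 ± 0.23, SE; adjusted p = 0.00253, edgeR; lost without library 2, adjusted p = 0.486), while Sox14 had 0.26 ± 0.36 (adjusted p = 0.854). That call of Shox2 held in 9 of 14 other settings. Whether the response of Sox14 differs between the 2 fits was not tested, and the fits share nuclei.

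Besides Lhx3 and Lhx4, the LIM genes tested were Lhx1, Lhx9 and Lmx1b, of which Lhx9 and Lhx1 fell in Lhx4-positive nuclei and Lhx9 in Lhx3-positive nuclei. All of them were low in the positive nuclei and passed the filter on low counts through the negative nuclei. A fall was therefore nearly the only call open to them. Lhx9 had 0 UMIs in Lhx4-positive nuclei, against 5.71, 11.9 and 6.08 CPM in Lhx4-negative nuclei. With 3 UMIs over the positive nuclei as the limit, it was at least 9.89-fold lower (adjusted p = 1.59e-06, edgeR). In Lhx3-positive nuclei it was at 0, 0 and 1.09 CPM, against 5.51, 11.2 and 5.49 CPM in Lhx3-negative nuclei (log2 fold change -4.37 ± 0.90, SE; adjusted p = 0.00291, lost without library 2 at adjusted p = 0.470). Lhx1 was at 0, 0.484 and 0 CPM in Lhx4-positive nuclei, against 4.70, 3.36 and 4.99 CPM in Lhx4-negative nuclei (-3.73 ± 0.99, SE; adjusted p = 0.0101), a call lost without library 2 or library 3 (adjusted p = 0.0955 and 0.388). In Lhx3-positive nuclei Lhx1 did not pass (-1.20 ± 0.76, SE; adjusted p = 0.548, edgeR). Lmx1b passed in neither fit, with -1.71 ± 0.65 (SE; adjusted p = 0.123) for Lhx4 and -3.31 ± 1.05 (SE; adjusted p = 0.0772, edgeR) for Lhx3.

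Of the 19 listed transmitter and monoamine genes, 7 were tested in each fit, and 0 rose while 6 fell in Lhx4-positive and 5 in Lhx3-positive nuclei. Ddc, Slc6a2 and Slc6a5 averaged only 1.76, 0.529 and 1.72 CPM in Lhx4-positive nuclei. Genes this low passed the filter on low counts through the negative nuclei, so a fall was nearly the only call open to them. No conclusion is drawn from the tally. Ddc, the decarboxylase of monoamine synthesis, was at 0, 2.91 and 2.38 CPM in Lhx4-positive nuclei, against 12.3, 11.3 and 13.9 CPM in negative nuclei (log2 fold change -2.28 ± 0.42, SE; adjusted p = 0.000105, edgeR). The noradrenaline transporter Slc6a2 had -3.38 ± 0.78 (adjusted p = 0.00250; lost without library 2, at 0.574), the vesicular monoamine transporter Slc18a2 -1.15 ± 0.26 (adjusted p = 0.00216; lower in libraries 2 and 3, not in library 1), the inhibitory genes Gad2 and Slc6a5 -1.66 ± 0.46 and -2.97 ± 0.79 (adjusted p = 0.0153 and 0.0104) and the vesicular glutamate transporter Slc17a7 -1.06 ± 0.20 (adjusted p = 0.000165, edgeR). Without library 2 or library 3, Gad2, Slc6a5 and Slc18a2 were no longer called (adjusted p of 0.142 to 0.491). Slc17a7, a marker of cortical neurons that also reached 15.1 ± 12.5 CPM in the positive nuclei, was not called without library 3 (0.0642). Slc17a6, the vesicular glutamate transporter of the brainstem, was at 140, 118 and 125 CPM in Lhx4-positive nuclei, against 91.2, 79.5 and 110 CPM in negative nuclei, an increase below the fold threshold (0.42 ± 0.11, SE; adjusted p = 0.00879).

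In Lhx3-positive nuclei, Ddc (log2 fold change -2.57 ± 0.54), Slc6a2 (-3.83 ± 0.97), Slc18a2 (-1.13 ± 0.30), Gad2 (-2.21 ± 0.65) and Slc17a7 (-1.05 ± 0.22) fell, with adjusted p between 0.00289 and 0.0490 (edgeR). Each of the 5 was lost without at least 1 library: Ddc without library 3 (adjusted p = 0.0965), Slc6a2 and Slc18a2 without library 2 or 3 (0.200 to 0.313), Gad2 without library 1 or 3 (0.0565 and 0.748) and Slc17a7 without library 2 (0.408). Crh, the gene of corticotropin-releasing hormone, fell in Lhx4-positive (-2.09 ± 0.38, SE; adjusted p = 8.75e-05) and in Lhx3-positive nuclei (-4.06 ± 0.69, SE; adjusted p = 0.000354, edgeR). The first call held in 10 of 14 other settings and the second in 12 of 13. Crh averaged only 3.65 CPM in Lhx4-positive and 1.77 CPM in Lhx3-positive nuclei, against 12.3 and 11.6 CPM in the negative nuclei. In the Lhx3 fit it passed the filter on low counts through the negative nuclei, so a fall was nearly the only call open there. Of the listed LIM cofactors, which bind the LIM domains or assist Ldb1, 0 of 6 were called in either fit, with 1250 and 1126 of all genes lower at an unadjusted p under 0.05 in the Lhx4 and Lhx3 fits. Some fell by less than the fold threshold in Lhx4-positive nuclei: Ssbp2 (-0.50 ± 0.10, SE), Ssbp4 (-0.51 ± 0.13) and Ldb2 (-0.37 ± 0.11). Their adjusted p were 0.000304, 0.00654 and 0.0326 (edgeR). In Lhx3-positive nuclei Ssbp4 had -0.56 ± 0.15 (adjusted p = 0.0343), while Ssbp2 and Ldb2 had -0.10 ± 0.11 and 0.24 ± 0.11 (adjusted p = 0.784 and 0.277, edgeR). Of the LIM-only genes, which compete for those cofactors, Lmo3 was at 34.9, 37.3 and 24.6 CPM in Lhx4-positive nuclei, against 71.5, 76.9 and 73.4 CPM in negative nuclei (-1.22 ± 0.15, SE; adjusted p = 2.77e-08, edgeR). In Lhx3-positive nuclei Lmo3 had -0.13 ± 0.16.

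**Figure D4:**
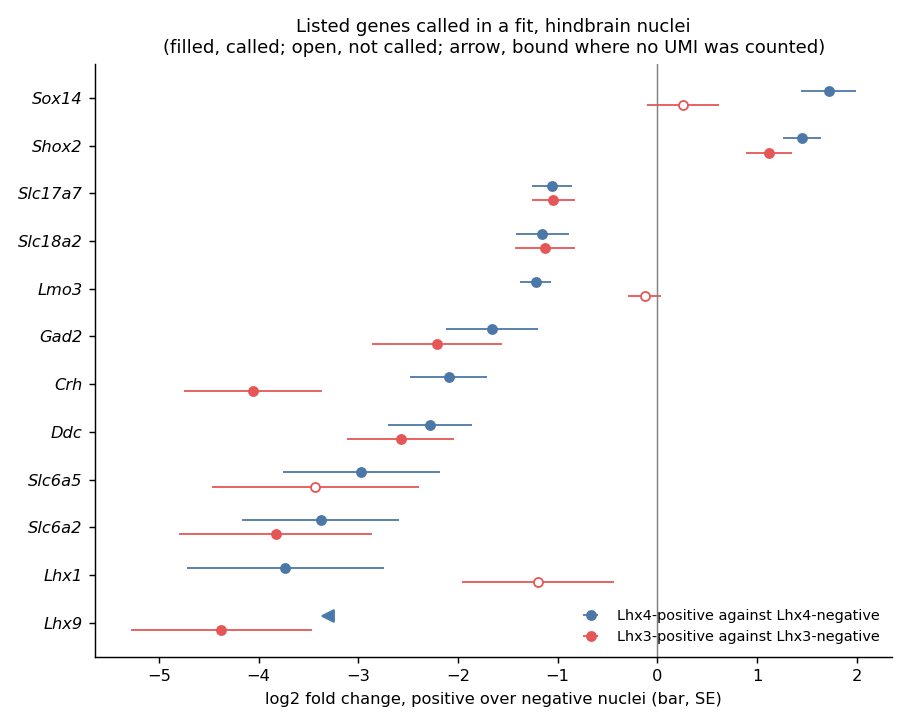
Log2 fold changes (x axis; bars, SE) of listed genes (y axis) called in at least 1 fit, in Lhx4-positive over Lhx4-negative and Lhx3-positive over Lhx3-negative hindbrain nuclei: filled points were called, open points were not, and the arrow is a bound where no UMI was counted. Sox14 and Shox2 lie above 0 in both fits, and the monoamine and inhibitory genes and Lhx9 lie below 0 in both.

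Beyond the lists, the genes with the largest called differences and the same direction in all 3 libraries were named. In Lhx4-positive nuclei these included Pdgfrl (log2 fold change 2.11 ± 0.26, SE), Gm30613 (1.78 ± 0.24), Sox14 and Pard3bos1 (1.67 ± 0.27) on the higher side. On the lower side were Prdm6 (-4.75 ± 0.42), Myo3b (-3.71 ± 0.45) and the potassium channel-interacting gene Kcnip3 (-3.54 ± 0.27). In Lhx3-positive nuclei, Pard3bos1 (2.69 ± 0.30), Arsj (2.47 ± 0.35), Ctcflos (2.35 ± 0.32), Lypd6 (2.20 ± 0.16) and the polarity gene Pard3b (2.13 ± 0.11) were highest, and 1700042O10Rik (-5.91 ± 0.64), Prdm6 (-4.56 ± 0.47) and Nox4 (-4.10 ± 0.48) lowest. Pard3b was at 309, 150.5 and 216 CPM in Lhx3-positive nuclei, against 70.4, 29.9 and 56.6 CPM in negative nuclei. Pard3bos1 is annotated by name as an opposite-strand transcript of Pard3b, so reads of the 2 cannot be told apart without strand. Prdm6 was at 0, 1.94 and 0 CPM in Lhx4-positive nuclei, against 21.0, 34.4 and 26.2 CPM in negative nuclei. Myo3b was at 8.74, 1.45 and 0 CPM in Lhx4-positive nuclei. In Lhx3-positive nuclei 1700042O10Rik was at 4.61, 0 and 0 CPM, Prdm6 at 0, 1.39 and 1.09 CPM and Nox4 at 0, 2.79 and 0 CPM. Genes this low passed the filter on low counts through the negative nuclei, so a fall was nearly the only call open to them. The sizes of their log2 fold changes rest on few UMIs. Pdgfrl was not called without library 2 (adjusted p = 0.146).

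The other LIM-positive hindbrain nuclei were too few for a test and are described by pooled levels. The 46 nuclei with 2 or more UMIs of Lhx9 held 0 UMIs of Lhx1, Lhx3, Lhx4, Lhx5 and Lmx1b, against 20.6 CPM of Lhx3 and 28.0 CPM of Lhx4 in nuclei without Lhx9. Lhx2 was at 20.6, 8.42 and 29.4 CPM in Lhx9-positive nuclei, against 1.06, 1.09 and 0.951 CPM in negative nuclei, above in each library. Crh was at 10.3, 29.5 and 84.0 CPM in Lhx9-positive nuclei, against 4.88, 9.08 and 9.35 CPM in negative nuclei, and Lmo3 was at 123, 118 and 134 CPM, against 61.7, 66.3 and 61.5 CPM. Nr4a2, an orphan nuclear receptor gene, was at 0, 49.1 and 50.4 CPM, against 7.78, 17.4 and 15.7 CPM, so library 1 with its 8 positive nuclei did not follow.

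The 25 nuclei with 2 or more UMIs of Lhx1 (6, 7 and 12 by library) held 0 UMIs of Lhx4 and Lhx9. Lhx5 was at 9.41 CPM in these nuclei, against 0.947 CPM in nuclei without Lhx1, and was above in each library. En1, a factor of a ventral inhibitory class and of the midbrain-hindbrain border, was at 14.1 CPM, against 0.266 CPM, and Dmbx1, a homeobox gene of the midbrain and hindbrain, at 18.8 CPM, against 0.947 CPM, with 0 UMIs of either in the 6 positive nuclei of library 1. En1 was in 2 and Dmbx1 in 6 of the 25 nuclei. Foxp2 was at 218, 39.0 and 24.7 CPM in positive nuclei, against 15.8, 11.6 and 10.7 CPM. The glutamatergic gene Slc17a6 was seen in 20 of the 25 nuclei, and Slc6a5 and Slc32a1, genes of inhibitory transmission, in 0.

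The 26 nuclei with 2 or more UMIs of Lmx1b (5, 9 and 12 by library) held monoamine genes that differed by library. Tph2, the serotonin-synthesising enzyme gene, was at 616, 3.62 and 462 CPM in libraries 1, 2 and 3, against 6.56, 0.895 and 6.82 CPM in nuclei without Lmx1b. Dbh, the enzyme gene of noradrenaline synthesis, was at 0, 86.8 and 18.1 CPM in Lmx1b-positive nuclei, against 0.918, 2.09 and 1.47 CPM, and Slc6a2 at 0, 101 and 9.06 CPM, against 2.23, 2.46 and 2.56 CPM. Library 2, the one with little Tph2 in positive nuclei, was the one with most Dbh and Slc6a2. Over all hindbrain nuclei, Tph2 was likewise at 12.8, 1.73 and 14.9 CPM. Tph2 was seen in 6 and Dbh in 4 of the 26 nuclei, and Slc17a6 in 16. Pou4f1 was at 61.6, 10.9 and 31.7 CPM in the positive nuclei, against 1.18, 0.149 and 0.853 CPM, above in each library.

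**Figure D5:**
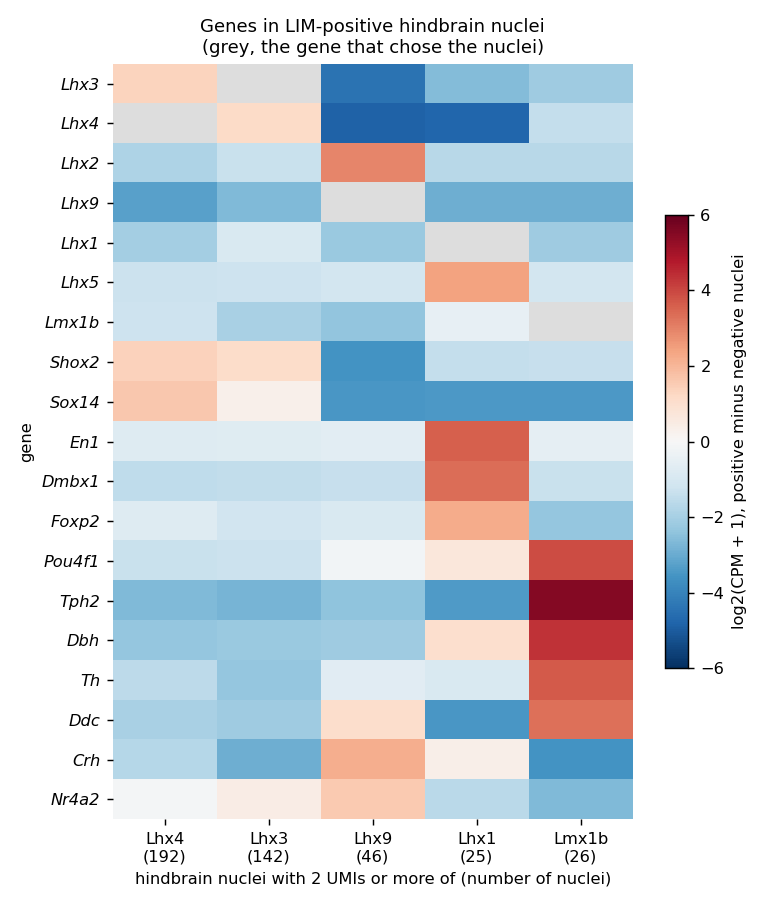
Genes (y axis) in hindbrain nuclei with 2 or more UMIs of the LIM gene named on the x axis (number of nuclei in brackets), as the difference in pooled log2(CPM + 1) between these nuclei and nuclei with none of that gene; grey marks the gene that chose the nuclei. Tph2, Dbh and Th are high in Lmx1b-positive nuclei, En1 and Dmbx1 in Lhx1-positive nuclei and Lhx2 and Crh in Lhx9-positive nuclei, and Shox2 is above 0 in Lhx4-positive and Lhx3-positive nuclei alone among these 5.

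In red nucleus nuclei, those with Lhx1 or Lhx4 were few and are described with no test. The 8 nuclei with 2 or more UMIs of Lhx4 held 0 UMIs of Lhx1 and 0 of Pou4f1, a factor of red nucleus neurons, against 19.4 and 19.9 CPM in red nucleus nuclei without Lhx4. They held Shox2 at 23.8 CPM, against 2.87 CPM. They also held the hindbrain gate genes Meis2 at 179 CPM, against 85.4 CPM, and Meis1 at 47.6 CPM, against 19.9 CPM. Meis2 was lower in the positive nuclei of library 3 (21.6 CPM, against 85.8 CPM). Ttc6 and Chst9, of the red nucleus gate, were at 41.7 and 47.6 CPM, against 126 and 142 CPM. Rreb1 of that gate was at 161 CPM, against 132 CPM. The red nucleus gate came before the hindbrain gate, and how many of the 8 are hindbrain nuclei was not tested. The 14 nuclei with 2 or more UMIs of Lhx1 held Pou4f1 at 22.4 CPM, against 19.8 CPM, and Lhx5 at 22.4 CPM, against 5.79 CPM, above in each library. This level of Lhx5 rests on 5 UMIs in 4 nuclei, and the 14 were deeper (median 17830.5 against 11416 UMIs). Lhx4 was at 4.48 CPM in the 14, from 1 UMI in 1 nucleus, against 7.99 CPM. At 1 UMI or more of each gene, Lhx1 and Lhx4 met in 2 red nucleus nuclei, against a product of 4.83.

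The few cortical nuclei with 2 or more UMIs of a LIM gene carried genes of other types. The 13 with Lhx9 held Hcrt at 1019 CPM, against 53.7 CPM in cortical nuclei without Lhx9, and 11 of them held Ros1. The 21 with Lhx4 held Slc17a6 in 20 and at 82.8 CPM, against 6.01 CPM, while Slc17a7 was at 66.8 CPM, against 112 CPM, and 7 of the 21 were called doublets. The 10 with Lmx1b held Tph2 at 405 CPM, against 0.776 CPM. The 14 with Lhx2 did not follow this: Slc17a7 was seen in all 14, at 127 CPM, against 110 CPM, and Slc17a6 was at 9.61 CPM, against 7.06 CPM. Since the cortical gate was applied first, nuclei of other types with Tox enter it, and how much of the cortical LIM levels comes from them was not tested.

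Across the 12 sums of type and library, the genes whose log2(CPM + 1) moved most like a LIM gene were named among 13671 genes, as a description in which 4 types and 3 libraries are shared by all points. Lhx3 was most like Gm47757, Shox2 and Asb4 (Pearson r = 0.950, 0.942 and 0.941), and genes among those most like Lhx4 were Erh (0.946) and Cntnap5c (0.932). Lhx2 went with Abcc9 (0.994), Rrad (0.994) and Cd63 (0.985), and Lhx9 with Plxnc1 (0.972), Sgsm1 (0.967) and Gm45194 (0.963). Lhx1 went with Tex47 (0.969), Deptor (0.968) and Itpr2 (0.968), and Lhx5 with Gm33696 (0.950), Ctxn3 (0.947) and Grb14 (0.945). Abcc9 was at 16.5 CPM in hypothalamic nuclei, against 0.396 CPM in hindbrain, 0 in red nucleus and 0.130 CPM in cortical nuclei.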

How the data were processed

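Nuclei of 3 libraries were analysed. The authors deposited whole-number UMI counts per gene and barcode, made with Cell Ranger on mm10. Its version is 6.1.1 per the file headers and 7.0.1 per the submitters' processing notes, and no source used here states further filters. The matrices held 2710, 11094 and 3713 barcodes and 27435221, 74287112 and 60490064 UMIs, with a smallest barcode of 502, 500 and 501 UMIs. No sample columns were left out.

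From these counts, nuclei were filtered and gated as described, and UMIs were summed per type and library. Sums were tested with edgeR 4.0.16 (R 4.3.3): TMM scaling, filterByExpr, the quasi-likelihood test with the library as a block, since all types of a library come from 1 preparation, and Benjamini-Hochberg adjustment over all genes tested. The 9 gate genes were left out of the tests. Residual degrees of freedom were 6 for the types and 2 for each fit of positive against negative nuclei (2 UMIs or more against 0 UMIs). The scripts were tested on simulated data. DESeq2 1.42.0 was an alternative, as were leaving out each library, no block, other gates and filters, and thinning to 5000 UMIs. Scrublet in Scanpy 1.11.5 (expected rate 6%) called 15, 59 and 52 doublets, which were kept, and removed as an alternative. Python 3.11.15, numpy 2.4.6, scipy 1.17.1 and pandas 2.3.3 were used.

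The text names the LIM genes, the called members of listed gene groups with at most 4 that were not called, the 5 highest and 3 lowest called genes of each positive against negative fit (at least 20 CPM in the higher group and the same direction in 3 libraries), and the 3 genes most alike each LIM gene of at least 5 CPM. Some genes that these rules name are not reported here, in text or figures. The members and lists were chosen with earlier results of these data known. Intervals and limits cover counting error only. With the library as a block, the level of each library is taken out. The p-values then measure how the differences between types, or between positive and negative nuclei, vary over these libraries.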

Additional observations from a re-analysis of the deposited data

Results flagged for a closer look

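Nuclei that passed no gate entered no comparison between types, yet each LIM gene was above the level that 3 UMIs would give there. Over all libraries, Lhx4 was at 14.1 CPM, Lhx3 at 8.3 CPM, Lhx1 at 5.78 CPM and Lhx9 at 3.69 CPM. Lhx2 was at 2.89 CPM, Lhx5 at 2.34 CPM and Lmx1b at 0.923 CPM. Lhx8 was at 0.677 CPM, Lhx6 at 0.431 CPM and Isl1 at 0.246 CPM, from 11, 7 and 4 UMIs.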

How the results depend on the processing

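Among results for single genes, 1528 alternative values kept their direction and side of the threshold, 120 lost the call, 13 gained one, 21 values without a test moved and 1 reversed, which was Lhx4 in cortical nuclei at 0.0969 after thinning to 5000 UMIs; the cause was not tested. Without 1 library, LIM genes called lower numbered 3 to 5 in cortical, 1 to 2 in red nucleus and 0 to 1 in hindbrain nuclei, all genes called lower in hindbrain nuclei 86 to 193, genes in Lhx3-positive nuclei 48 to 103 higher and 164 to 310 lower, and in Lhx4-positive nuclei 33 to 99 higher and 168 to 372 lower. Thinning to 5000 UMIs left 1 LIM gene lower in cortical, 1 higher in red nucleus and 0 lower in hindbrain nuclei, with 493 genes higher and 238 lower in red nucleus nuclei, 461 higher in hypothalamic nuclei, 105 lower in Lhx3-positive nuclei and 20 higher and 90 lower in Lhx4-positive nuclei. Without the block of libraries, which pairs sums of 1 preparation, 120 genes were lower in hindbrain nuclei, 29 higher and 90 lower in Lhx3-positive and 25 higher and 114 lower in Lhx4-positive nuclei. DESeq2 called 38 higher and 90 lower in Lhx3-positive and 33 higher and 107 lower in Lhx4-positive nuclei. Gates of at least 3 UMIs gave 3 LIM genes lower in cortical nuclei, 116 genes lower in hindbrain nuclei, and shares of 2.80% red nucleus and 1.11% hypothalamic nuclei. No filter on low counts gave 2 LIM genes lower in red nucleus nuclei. Nuclei without a gate, added as a type, gave 343 genes lower in hindbrain nuclei. Positivity at 3 UMIs gave 143 lower for Lhx3 and 148 lower for Lhx4, and at 1 UMI 36 higher for Lhx4. Doubled gates gave 28.4% cortical, 2.36% red nucleus, 1.33% hypothalamic, 27.5% hindbrain and 40.4% without a gate, and a minimum of 500 genes gave 35.3%, 1.37%, 25.4% and 34.8% cortical, hypothalamic, hindbrain and without a gate. The ratio for Lhx3 with Lhx4 at 2 UMIs in nuclei without a gate was 10.9 at 500 genes and 0 after thinning. Depth limits the rarer genes: 3 UMIs are 2.13 CPM in hypothalamic nuclei.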

Other observations

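The 44 nuclei without a gate that held 2 or more UMIs of Lhx4 carried Lhx3 and Shox2, as seen in Lhx4-positive hindbrain nuclei. Lhx3 was at 23.7, 25.1 and 24.3 CPM in them in libraries 1, 2 and 3, against 6.76, 5.71 and 6.72 CPM in nuclei without a gate and without Lhx4. Shox2 was at 58.1 CPM, against 11.1 CPM, and above in every library. The 11 nuclei without a gate that held 2 or more UMIs of Lhx9 had Hcrt at 1265 CPM, against 119 CPM, and Lhx2 at 49.5 CPM, against 2.14 CPM, though Lhx2 was at 0 in the positive nuclei of library 3. These pooled levels carry no test.

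Ldb1, the cofactor that binds LIM domains, was not called in any type. Ldb2, its paralogue, rose in cortical nuclei (log2 fold change 2.75) and fell in red nucleus nuclei (-2.40), each against the mean of the other 3 types (edgeR). It averaged 60.3 ± 29.6 CPM in red nucleus and 666 ± 49.5 CPM in cortical nuclei (SD, n = 3).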
